A study of Mus musculus with 6 samples.

Results

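Solute carriers are the membrane proteins that move amino acids, metals, sugars, organic acids and inorganic ions across the plasma membrane and the membranes of organelles. The genes described here are the protein-coding genes with an SLC or SLCO symbol in a deposited table of KYSE30 cells, a line established from a human squamous carcinoma of the esophagus. Of the 68 such genes in the table, 63 were taken; SLC44A1, SLC44A2, SLC2A1, SLC2A3 and SLC7A11 were left out by the rule that defined the set. The 63 genes are part of 4195 listed genes, of which 3943 are protein-coding.

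Cells of wild-type genotype were grown in medium with serum. The Control group was left without treatment, and the other group received acetylcholine (ACh), the neurotransmitter bound by muscarinic and nicotinic receptors, at 100 uM; both are labelled 4 h. There were 3 libraries in each, and nothing says that they came from separate cultures, so the p-values measure only the spread of these samples, and that spread may be technical. The labels name the mouse as organism, but 4183 of the 4195 gene IDs in the table are human Ensembl IDs. All listed genes have a p under 0.05, before adjustment, in the authors' deposited table, so being listed is no finding, and solute carriers outside the table have no value here. Values are normalised counts, that is read counts divided by one factor per library.

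Carriers are grouped into numbered families by sequence, and the family often tells the substrate. Amino acid carriers of families 1, 3, 6, 7 and 38 feed protein synthesis in dividing cells, and in squamous carcinomas the heterodimer of SLC7A5 and SLC3A2 is a well known route for leucine and other large neutral amino acids. SLC39 proteins bring zinc into the cytosol and SLC30 proteins take it out. SLC25 proteins lie in the inner mitochondrial membrane and exchange nucleotides, carboxylates and cofactors between matrix and cytosol. SLC16 proteins carry lactate and other monocarboxylates together with protons, and SLCO and SLC22 proteins carry larger organic ions.

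Library sums over the listed genes and library scaling factors both differed between the groups. The listed genes were selected for a difference, so their sum does not describe a whole library. Added up over the listed genes, a Control library held 11097307 to 11468978 normalised counts and an ACh library 10519515 to 10681118. Scaling factors were inferred from the step between the values of each library, and the Control libraries held few low values for this. The inferred factors lay from 0.986 to 1.30 for the Control libraries and from 0.884 to 0.954 for the ACh libraries. Neither measure overlapped between the groups. Scaled to one total over these selected genes, 38 of the 41 calls described below were kept. Of 12 squamous epithelial markers 5 were listed, with means from 1637 to 2781. By the call defined below SOX2 and KRT15 were lower in ACh (log2 fold changes of -0.20 and -0.17), TP63 and DSC3 were higher (0.23 and 0.14), and DSG3, at 0.12, was not called. The summed level of the 5 markers overlapped between the groups, at 10802 to 11093 in Control and 10518 to 11091 in ACh. Of the other cell types, 1 of 7 fibroblast markers was listed, COL1A1, at 146 to 193 in Control and 133 to 147 in ACh, without a call. Of 5 endothelial markers EGFL7 was listed, at 1052 to 1081 in Control and 818 to 969.6 in ACh, and it was called lower. Of 7 immune markers LAPTM5 was listed, at 17.7 to 21.3 in Control and 31.1 to 48.2 in ACh, and it could not be called. Markers outside the table were not analysed here, and the part of these markers in the results was not tested.

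More of the solute carrier genes were lower than higher in ACh, and all changes that passed the test were small. A gene was called when its limma adjusted p, fitted over all 4195 genes on the log2(value + 1) scale, and the adjusted p in the authors' deposited table were both under 0.05; "rose" and "fell" are used only for called genes. Of the 63 genes 14 rose, 27 fell and 22 were not called. Limma alone passed all 63, with 21 higher and 42 lower, and all were listed for an unadjusted p under 0.05, so a count of none below refers to the call by both. These are bulk samples, in which less RNA per cell and fewer cells of one state cannot be told apart. The 41 called genes are 65.1% of the set, close to the 63.8% called over all listed genes. The 14 that rose are 22.2%, against 28.8% over all listed genes, and the 27 that fell are 42.9%, against 35.0%. Over the listed protein-coding genes alone 66.4% were called, with 29.9% higher and 36.5% lower. The groups did not overlap for 61 of the 63, beside 93.0% of all listed genes. The median log2 fold change was -0.15 in the set and -0.10 over all listed genes. None of the 41 called genes reached a 1.5-fold change; the median was 1.17-fold and the maximum 1.29-fold, for SLC39A10. Summed over the 63 genes, the Control libraries held 158447, 160651 and 160268 normalised counts and the ACh libraries 147721, 148185 and 147778. The ACh sums were all below the Control sums, whereas the share of the listed counts taken by the set, 1.40% to 1.44% in Control and 1.38% to 1.40% in ACh, overlapped slightly. The call limit had genes close to it on both sides: SLC25A40 was the last inside, where the authors' deposited table gives an adjusted p of 0.0468, and SLC23A2 the first outside, with 0.0507.

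**Figure D1:**
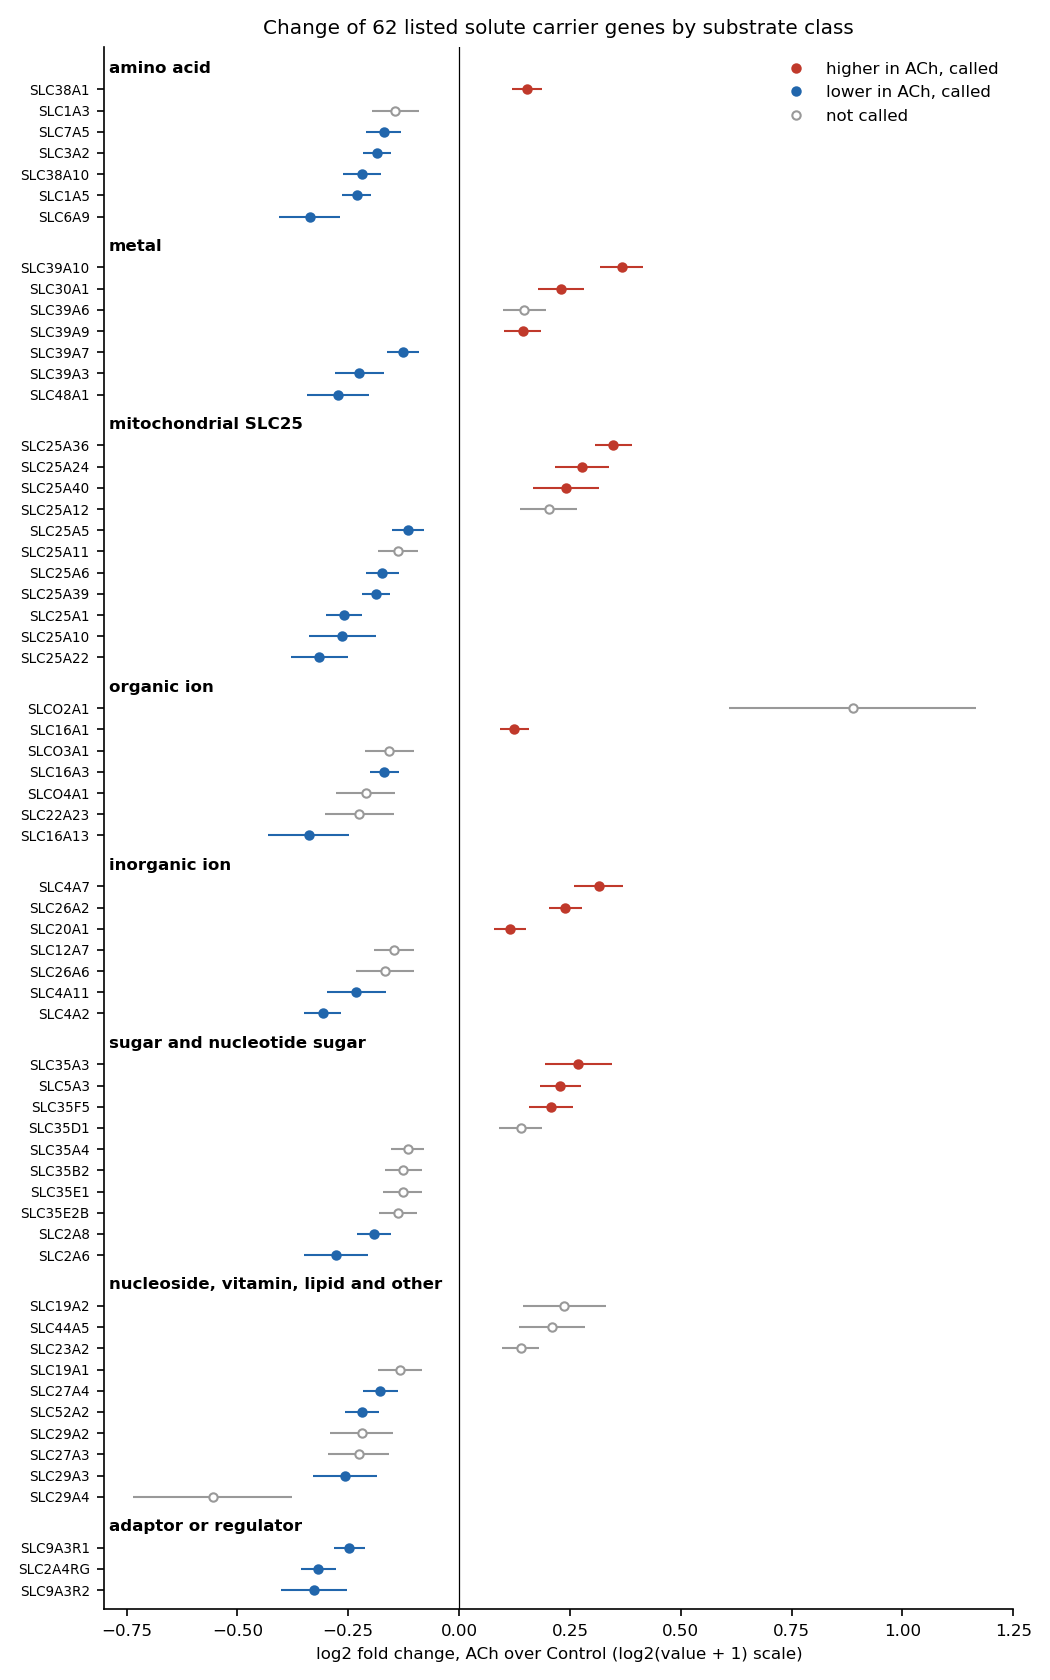
Log2 fold change (x axis, ACh over Control on the log2(value + 1) scale) of 62 of the 63 solute carrier genes, grouped by substrate class, with the limma standard error as bar; red and blue points are called genes and open points are not called. Every called gene lies between -0.34 and 0.37, and amino acid carriers other than SLC38A1 lie left of 0.

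Of 7 listed amino acid carriers 5 fell, 1 rose and 1 was not called, with a median log2 fold change of -0.19. Over all listed genes 35.0% fell and 28.8% rose, with a median of -0.10. These shares stand beside the counts of every class below, and no class was tested against them. None of the 6 amino acid calls held with the trend in GC content removed, a step described further on. SLC7A5 and SLC38A10 then changed sign. SLC7A5, the light chain that forms the transport path of the large neutral amino acid exchanger (ENSG00000103257, chromosome 16, 87830023 to 87869488), had 35120, 35898 and 36503 normalised counts in Control and 31982, 31483 and 32070 in ACh. All ACh values were below all Control values, and the gene fell by 0.17 on the log2 scale (standard error 0.04, limma adjusted p = 0.000857). It was the member with the most counts per length, at 7553 normalised counts per kilobase of gene model in Control. SLC3A2, the heavy chain that brings SLC7A5 to the cell surface (chromosome 11, 62856102 to 62888875), gave 12149, 12364 and 12322 in Control and 10755, 10897 and 10743 in ACh. It fell by 0.19 (limma adjusted p = 6.74e-05), again without overlap. Per length, the ratio of SLC7A5 to SLC3A2 was 3.19 ± 0.04 in Control and 3.22 ± 0.06 in ACh (SD, n = 3), and it overlapped between the groups (two-sided exact permutation p = 0.5, where 0.1 is the smallest possible). This ratio was chosen after both genes were seen to fall by similar amounts. The p-value therefore cannot decide whether the ratio stayed constant.

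Among carriers of glutamine and other neutral amino acids the directions were not alike. SLC1A5, an exchanger of glutamine and small neutral amino acids on chromosome 19, had 7007, 7167 and 6889 normalised counts in Control and 6135, 6039 and 5781 in ACh, and it fell by 0.23 (limma adjusted p = 1.44e-05). SLC38A1, a sodium-coupled glutamine importer on chromosome 12 (46183063 to 46270017), gave 4363, 4090 and 4211 in Control and 4653, 4657 and 4773 in ACh and rose by 0.15 (limma adjusted p = 0.000532); it was the only amino acid carrier called higher. SLC38A10, a family member at intracellular membranes, fell by 0.22. SLC6A9, the glycine carrier, went from 828 ± 36.0 to 657 ± 69.8 (SD, n = 3) and fell by 0.34, which was the largest fall of the class. SLC1A3, a glutamate and aspartate carrier, had a log2 fold change of -0.14 and overlapping groups, and it was not called because its adjusted p in the authors' deposited table was 0.114.

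Metal carriers went both ways and held the largest called rise of the whole set. Of 7 listed genes 3 rose, 3 fell and 1 was not called, with a median of 0.14. With the GC trend removed the call of SLC39A10 alone held. SLC39A10, a zinc importer of the plasma membrane (ENSG00000196950, chromosome 2, 195575977 to 195737702), had 879, 910 and 875 normalised counts in Control and 1162, 1117 and 1157 in ACh. Every ACh library lay well above every Control library, and the log2 fold change was 0.37 (standard error 0.05, limma adjusted p = 7.48e-06). SLC30A1, which exports zinc from the cell (chromosome 1, 211571568 to 211578742), gave 1183, 1036 and 1143 in Control and 1335, 1336 and 1265 in ACh and rose by 0.23. SLC39A9 rose by 0.14, and SLC39A6, another zinc importer, had a log2 fold change of 0.15 and was not called. SLC39A7, which releases zinc from the endoplasmic reticulum and Golgi, went from 2555 ± 11.5 to 2342 ± 75.6 (SD, n = 3) and fell by 0.13. SLC39A3, a further zinc importer, fell by 0.22, and SLC48A1, a heme carrier of endosomes and lysosomes, fell by 0.27. Per length, the ratio of SLC39A10 to SLC39A7 was 0.142, 0.147 and 0.140 in Control and 0.204, 0.203 and 0.197 in ACh, which is a description of a pair called in opposite directions. The call of SLC39A7 ended when every library was scaled to one total, at -0.05.

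The mitochondrial SLC25 carriers were the largest family, with 11 listed genes, of which 3 rose, 6 fell and 2 were not called, and with a median of -0.14. With the GC trend removed SLC25A36 and SLC25A5 kept their calls. SLC25A36, which carries pyrimidine nucleotides (ENSG00000114120, chromosome 3, 140941830 to 140980961), had 1371, 1309 and 1326 normalised counts in Control and 1665, 1687 and 1748 in ACh. The groups lay far apart relative to their spread, and the gene rose by 0.35 (standard error 0.04, limma adjusted p = 2.86e-06). SLC25A24, a calcium-regulated carrier of ATP-magnesium and phosphate, gave 872, 846 and 862 in Control and 988, 1170 and 982 in ACh and rose by 0.28, with ACh replicate 2 above the other ACh libraries. SLC25A40 rose by 0.24, and SLC25A12, an aspartate-glutamate carrier, had a log2 fold change of 0.20 without a call.

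The other 7 SLC25 genes were lower in ACh, and 6 of them fell. SLC25A5, an ADP/ATP carrier on chromosome X (119468400 to 119471319), had 9345, 10055 and 9634 normalised counts in Control and 9060, 9244 and 8509 in ACh. The highest ACh library was just below the lowest Control library, and the gene fell by 0.12 (limma adjusted p = 0.00678). SLC25A6, a further ADP/ATP carrier, fell by 0.17. These genes are close copies of each other and of processed pseudogenes, and the sources used here do not say how reads matching several of them were counted, so their values are uncertain. The call of SLC25A5 ended with equal library totals (-0.04). SLC25A1, the citrate carrier, went from 1710 ± 46.1 to 1428 ± 13.7 (SD, n = 3) and fell by 0.26. SLC25A10, the dicarboxylate carrier, fell by 0.26, and SLC25A22, a glutamate carrier, by 0.32. SLC25A11, which exchanges oxoglutarate for malate, had a log2 fold change of -0.14 and was not called.

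SLC25A39 and SLC25A40 belong together as importers of glutathione into mitochondria, and here they were called in opposite directions. SLC25A39 had 5113, 5293 and 5014 normalised counts in Control and 4439, 4607 and 4493 in ACh and fell by 0.19, whereas SLC25A40, with 473, 446 and 455 in Control and 584, 553 and 491 in ACh, rose. Per length, their ratio was 16.2 ± 0.79 in Control and 12.05 ± 1.13 in ACh (SD, n = 3), and the lowest Control ratio, 15.6, was above the highest ACh ratio, 13.2; their opposite calls fix the direction, so no test is given. SLC25A40 overlaps the listed gene DBF4, which lies on the opposite strand and had a log2 fold change of 0.21, and no source used here says that counting used strand.

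Organic ion carriers had a median level of 595 normalised counts over all libraries, below the 1216 of the whole set, though SLC16A3 had a mean of 12583. Of 7 listed genes 1 rose, 2 fell and 4 were not called, with a median of -0.17. With the GC trend removed no call was left, and SLC16A1 and SLC16A3 changed sign. SLC16A1, a carrier of lactate and pyruvate with broad tissue distribution (chromosome 1, 112911847 to 112957013), had 3553, 3581 and 3453 normalised counts in Control and 3846, 3903 and 3789 in ACh and rose by 0.12 (limma adjusted p = 0.0021). SLC16A3, the lactate exporter of glycolytic cells (chromosome 17, 82228397 to 82261129), gave 12970, 13549 and 13430 in Control and 11597, 12178 and 11771 in ACh and fell by 0.17 (limma adjusted p = 0.000285). Neither gene had overlapping groups. The ratio of SLC16A3 to SLC16A1 per length was 2.16, 2.23 and 2.30 in Control and 1.78, 1.84 and 1.83 in ACh, again a description of a pair called in opposite directions. SLC16A13, a family member of less certain substrate, fell by 0.34, from 321 ± 13.3 to 254 ± 21.4 (SD, n = 3).

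None of the 3 listed SLCO genes was called. SLCO3A1 and SLCO4A1 had log2 fold changes of -0.16 and -0.21, and SLC22A23 of -0.23. SLCO2A1, a prostaglandin carrier, had 18.8, 20.3 and 9.98 normalised counts in Control and 30.02, 27.2 and 32.5 in ACh. This is the lowest level in the set, the difference rests on few reads, and the log2 fold change of 0.89 ranged from 0.59 without Control replicate 3 to 1.06 over the fits that left out 1 library. Its adjusted p in the authors' deposited table is exactly 1, as for 234 low genes, which was treated as not adjusted, so a call was not possible.

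Inorganic ion carriers also went both ways, with 3 of 8 listed genes up, 3 down and 2 not called, and with the GC trend removed no call was left. SLC4A7, which imports sodium and bicarbonate (chromosome 3, 27372721 to 27484420), had 706, 757 and 726 normalised counts in Control and 928, 925 and 870 in ACh and rose by 0.31 (limma adjusted p = 9.89e-05). SLC26A2, a sulfate carrier, rose by 0.24, and SLC20A1, a phosphate importer, by 0.12. SLC4A2, which exchanges chloride for bicarbonate (chromosome 7, 151057210 to 151076527), had 1784, 1848 and 1791 in Control and 1405, 1503 and 1474 in ACh and fell by 0.31 (limma adjusted p = 8.41e-06). SLC4A11, of the bicarbonate carrier family, fell by 0.23. SLC12A7, a potassium-chloride cotransporter, and SLC26A6, an anion exchanger, had log2 fold changes of -0.15 and -0.17 without a call.

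**Figure D2:**
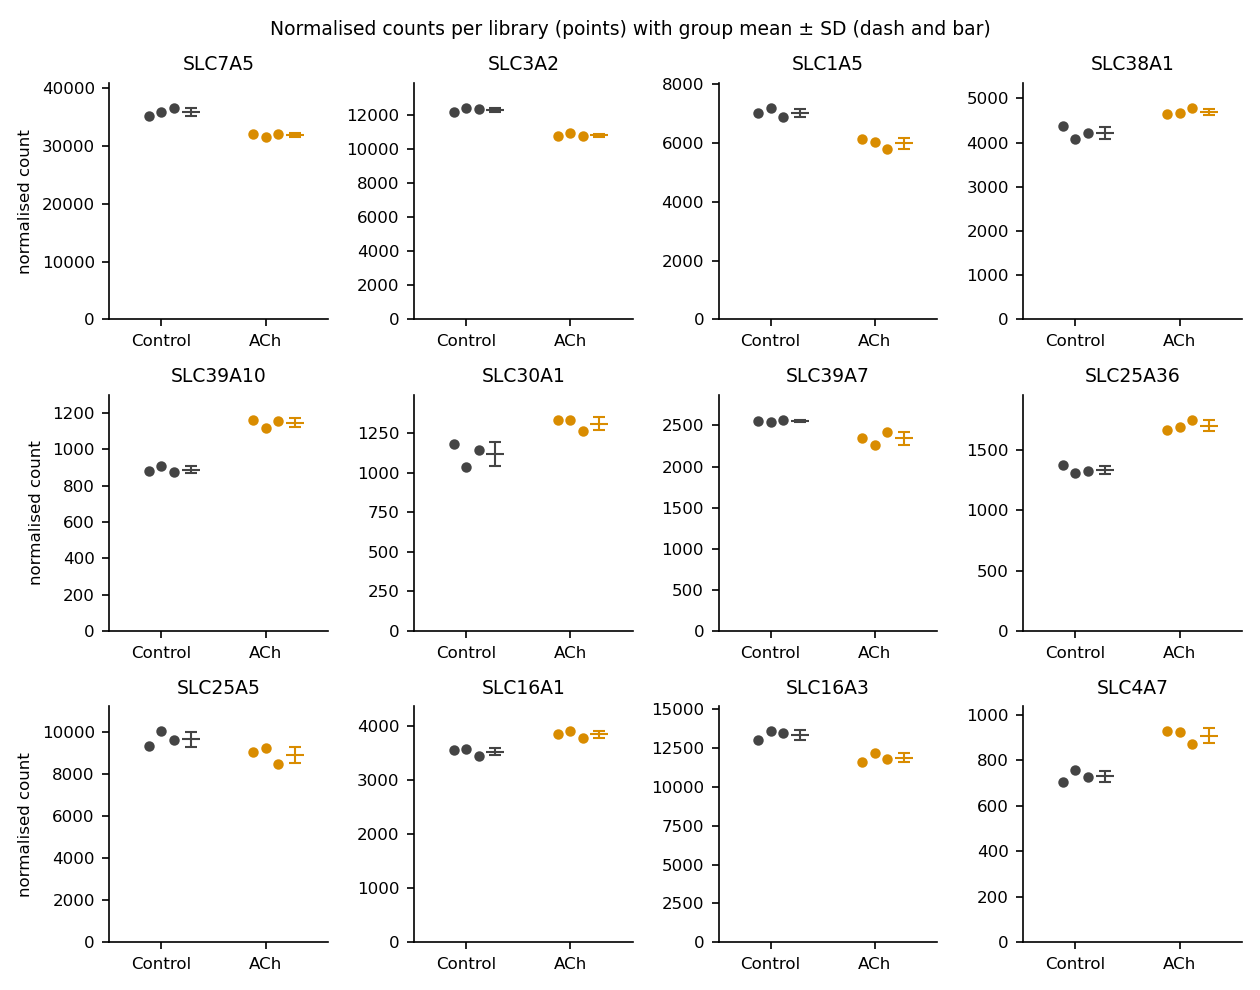
Normalised counts (y axis, from 0) of 12 solute carrier genes in the 3 Control and the 3 ACh libraries, one point per library, with the group mean as a dash and the SD as a bar. The 12 genes were picked from the called ones. The groups do not overlap in any panel, as in 93.0% of all listed genes, and their distance is small against the level in each.

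Carriers of sugars and nucleotide sugars made up 10 listed genes, of which 3 rose, 2 fell and 5 were not called; with the GC trend removed no call was left. SLC35A3, which brings UDP-N-acetylglucosamine into the Golgi, rose by 0.27, SLC5A3, a sodium-coupled importer of myo-inositol, by 0.23 and SLC35F5, a family member of uncertain substrate, by 0.21. SLC2A6 and SLC2A8, glucose carriers found largely at intracellular membranes, fell by 0.28 and 0.19. Within SLC35, the family of Golgi and endoplasmic reticulum carriers, 2 of 7 genes rose and none fell. SLC35D1 had a log2 fold change of 0.14, and SLC35A4, SLC35B2, SLC35E1 and SLC35E2B lay between -0.14 and -0.12. SLC35B2 stood at -0.08 without ACh replicate 2 and at 0.12 with the trend in GC content removed. SLC35A4, with means of 2083 ± 34.6 and 1922 ± 47.2 (SD, n = 3), had the most counts of the class and missed the call, since the authors' deposited table gives it an adjusted p of 0.0729.

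The remaining carriers, of nucleosides, vitamins, lipids and choline-like substrates, held 10 listed genes, of which 3 fell, none rose and 7 were not called; with the GC trend removed SLC29A3 kept its call. SLC52A2, a riboflavin importer, went from 2525 ± 101 to 2168 ± 34.0 (SD, n = 3) and fell by 0.22. SLC27A4, which takes up long-chain fatty acids, fell by 0.18. SLC29A3, a nucleoside carrier of lysosomes (chromosome 10, 71319258 to 71381423), had 853, 781 and 862 normalised counts in Control and 714, 608 and 775 in ACh. Its highest ACh library came within a few counts of the lowest Control library, and it fell by 0.26 (limma adjusted p = 0.00345); the log2 fold change was -0.16 without ACh replicate 2 and the call held. The ascorbate carrier SLC23A2, the thiamine carrier SLC19A2 and SLC44A5 had log2 fold changes of 0.14, 0.24 and 0.21. The groups of SLC19A2 overlapped, and its value was 0.15 without ACh replicate 2. The folate carrier SLC19A1, the nucleoside carrier SLC29A2 and SLC27A3, of the fatty acid family, had -0.13, -0.22 and -0.23. SLC29A4, a carrier of monoamines, was placed in this class by its family. It had 93.8, 99.4 and 70.6 normalised counts in Control and 61.1, 47.5 and 70.2 in ACh. Since the authors' deposited table lists its adjusted p as exactly 1, a call was not possible.

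The symbol rule also took 3 genes whose products are not carriers, and all 3 fell, beside 35.0% of all listed genes. SLC9A3R1 and SLC9A3R2 encode scaffold proteins that bind the tails of membrane transporters, and SLC2A4RG encodes a DNA-binding regulator named for the glucose carrier gene SLC2A4. SLC9A3R1 went from 3715 ± 147 to 3127 ± 13.0 (SD, n = 3), a fall of 0.25, while SLC2A4RG fell by 0.32 and SLC9A3R2 by 0.33. Without these genes 14 of 60 rose, 24 fell and 22 were not called.

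Genes that work with the carriers were looked up in lists. Of 37 carriers of SLC type that go by other symbols 6 were listed, and 5 fell, none rose and 1 was not called, with a median of -0.18. Over all listed genes 35.0% fell and 28.8% rose. The median GC content of these 6 genes, a measure described further on, was 59.0%, beside 50.9% over all listed genes with a value. MFSD12, a cysteine carrier of lysosomes and melanosomes, fell by 0.27 and MFSD5 by 0.19. Of 22 partners and ion pumps 5 were listed, with 1 up, 3 down and 1 not called. BSG, which encodes basigin, the partner that brings SLC16A1 and SLC16A3 to the cell surface, fell by 0.22. ATP6V1B2, a subunit of the proton pump of acidic organelles, rose by 0.16. ATP6V0C, another subunit of that pump, went from 254 ± 30.6 to 114 ± 32.1 (SD, n = 3) and fell by 1.19.

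Levels per length spread widely over the set. In Control, SLC7A5 (7553 normalised counts per kilobase) was followed by SLC25A5 (6452), SLC3A2 (2371), SLC1A5 (2107), SLC9A3R1 (1605), SLC16A3 (1480) and SLC25A39 (1458). All 7 fell in ACh, beside 35.0% of all listed genes, but only SLC25A5 of them kept its call with the GC trend removed. A link between level and direction was not tested. The lowest levels were those of SLCO2A1 (1.66), SLC29A4 (15.1) and SLC35A3 (24.9). The called genes that rose had longer gene models, with a median of 7290 bases, than those that fell, with 3550 bases, and the same held over all listed genes called in each direction, with medians of 7130 and 4027 bases.

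Direction went with base composition in the solute carriers, as it did in the whole table. GC content was taken from the mouse gene with that symbol, since no human sequence was used here, and 60 of the 63 genes had a value. The 14 genes that rose had GC contents from 38.8% (SLC35A3) to 48.5% (SLC38A1). The 25 genes with a value that fell had from 48.6% (SLC25A5) to 61.6% (SLC9A3R2), so these ranges nearly met but did not overlap. Over all listed genes the ranges overlapped widely, at 33.9% to 58.5% for genes called higher and 31.9% to 71.3% for genes called lower. The medians of the solute carriers were 43.7% and 57.5%, beside 43.7% and 56.9% over all listed genes called in each direction. Across the 60 genes the Spearman correlation between log2 fold change and GC content was -0.80, and across the 3676 listed genes with a value it was -0.76; genes share their libraries and are not independent replicates. The classes differed in the same measure: the median GC content was 56.3% for amino acid carriers, 48.7% for metal carriers, 51.4% for SLC25 carriers and 53.8% for organic ion carriers. Among the opposed genes above, SLC16A1 stood at 42.9% and SLC16A3 at 56.6%, SLC25A40 at 39.7% and SLC25A39 at 59.7%, and SLC39A10 at 44.5% and SLC39A7 at 57.5%.

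**Figure D3:**
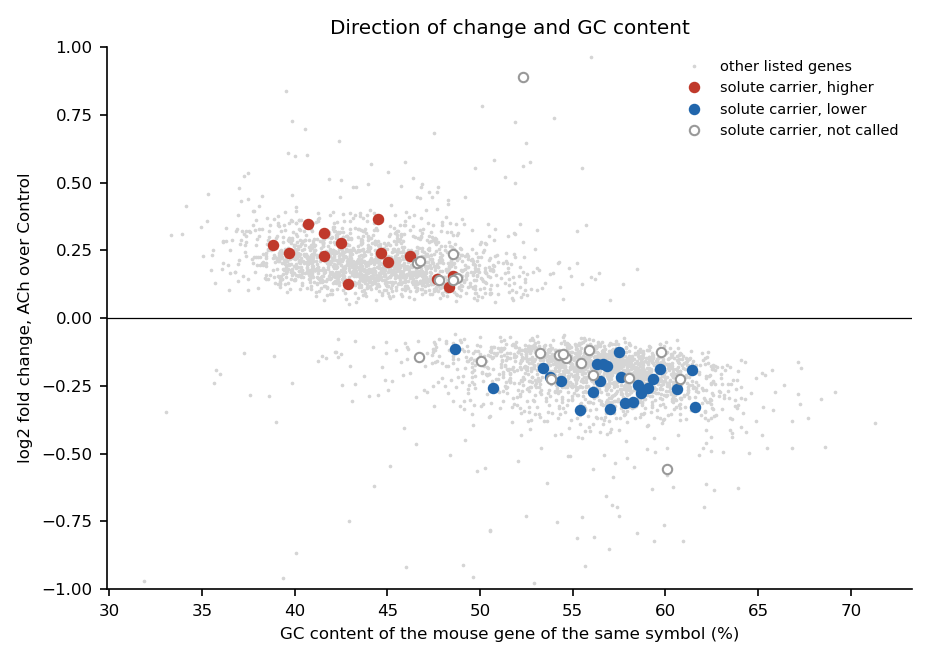
Log2 fold change (y axis, ACh over Control) against the GC content in percent of the mouse gene so named (x axis) for 59 solute carrier genes (large points, red higher, blue lower, open not called) and other listed genes (grey dots; 30 of 3616 lie beyond a change of 1 and are not drawn). Called solute carrier genes that rose lie at or below 48.5% GC and those that fell at or above 48.6%. Over all listed genes these ranges overlap.

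Removing the GC trend from each library left few of the changes. With a local regression on GC content subtracted, 4 of the 39 called genes with a GC value kept their call and sign, 25 lost the call in the same direction and 10 changed sign. Over all listed genes 329 of 2460 kept call and sign, 1170 lost the call in the same direction and 961 changed sign. By limma none of the 10 solute carrier genes that changed sign passed the adjusted threshold, and 4 of them had an unadjusted p under 0.05, SLC39A7, SLC16A1 and SLC2A8 among them. The 4 genes still called are 6.67% of the 60 genes, below the 10.8% called over all listed genes under this fit; 2 were higher and 2 lower, beside backgrounds of 4.95% and 5.82%. The genes that kept their call were SLC39A10, at 0.18, SLC25A36, at 0.13, SLC25A5, at -0.20, and SLC29A3, at -0.24 (limma adjusted p = 0.0122, 0.0333, 0.000209 and 0.0201). SLC7A5, SLC3A2 and SLC1A5 then stood at 0.02, -0.05 and -0.03, SLC38A1 at 0.07, SLC16A1 and SLC16A3 at -0.08 and 0.03, and SLC25A40 and SLC25A39 at 0.01 and 0.06. Every call among amino acid, organic ion, inorganic ion and sugar carriers ended, as did those of SLC9A3R1 and SLC9A3R2; SLC2A4RG, SLC25A6 and SLC35E2B had no GC value. Limma alone also passed 4 genes that were not called before. SLC1A3, at 46.7% GC, moved from -0.14 to -0.30 (limma adjusted p = 0.000204), and SLC35B2 turned from -0.13 to 0.12 (limma adjusted p = 0.0355). SLCO2A1 stood at 0.98 and SLCO3A1 at -0.17 (limma adjusted p = 0.0117 and 0.0282). All 4 remained short of a call because the authors' adjusted p does not change. For human cells this removal rests on mouse sequence and was fitted on genes selected for a difference.

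**Figure D4:**
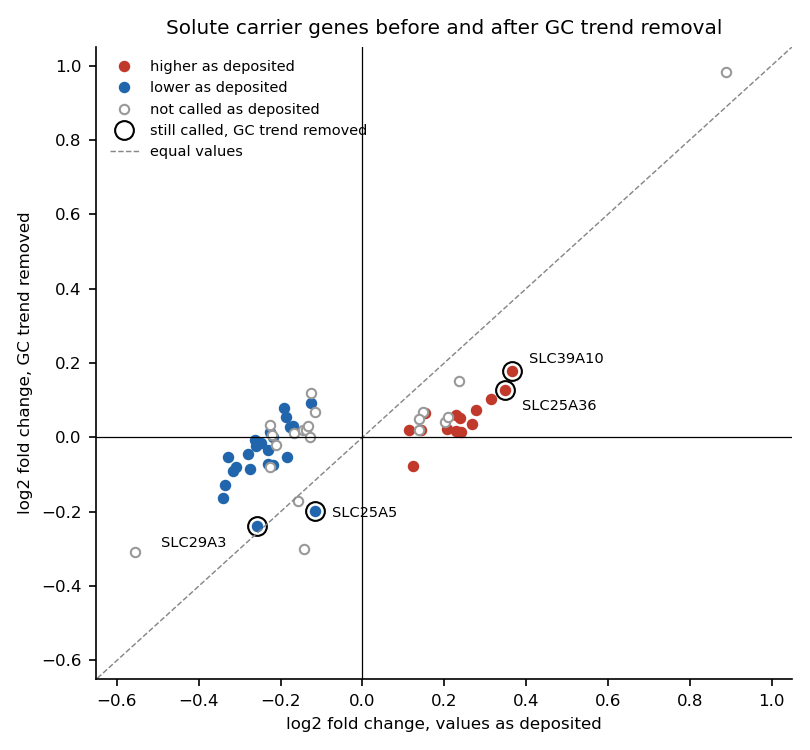
Log2 fold change of 59 solute carrier genes with the GC trend removed (y axis) against the log2 fold change of the values as deposited (x axis); rings mark genes still called. Most points lie near 0 on the y axis, and SLC39A10, SLC25A36, SLC25A5 and SLC29A3 are ringed.

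A further 6 members overlap another listed gene beside SLC25A40. SLC39A7, SLC48A1, SLC25A12, SLC19A1, SLC29A4 and SLC16A3 overlap RXRB, HDAC7, HAT1, COL18A1, TNRC18 and CSNK1D, each on the opposite strand. For SLC29A4 the neighbour is far higher, at a mean of 6946 normalised counts against 73.8. The neighbours' log2 fold changes had the sign of the member's in all 7 cases. No share over all overlapping listed genes was at hand to set beside this, and direction went with GC content in the whole table. Whether shared reads had a part in the equal signs was not tested. Without stated strand use, reads of such genes and their neighbours could not be told apart.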

How the data were processed

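Per the labels' protocols, total RNA of KYSE30 cells went into a SMARTer mRNA-seq library kit. Bowtie 0.12.2 is named in the submitters' processing notes, with mouse builds (mm8, mm10), while the gene IDs are human. For the human build, the counting tool and the strand setting nothing is given in the sources used here, and coordinates are as the file gives them. The deposited values are a signal, read counts that the authors divided by one factor per library; this was read from the values, all whole multiples of one step per library. The log2 fold changes, p-values and adjusted p-values are the authors', per the file headers, and gene lengths are deposited too. Their total depth is unknown, and low values rest on few reads.

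All 4195 genes were fitted on log2(value + 1) with limma 3.58.1 (limma-trend, R 4.3.3), a design of group alone and a Benjamini-Hochberg threshold of 0.05, without a filter. Because every listed gene was selected by p, limma passes 99.6% of them, so a call is nearly the authors' adjusted p (63.8%). On simulated data of 4195 genes with constant dispersion, limma found 54 of 100 planted 1.15-fold changes and all 100 planted 1.5-fold changes, and it made 7 false calls. Substrate classes follow the family. Named with values were, per class, up to 3 called genes per direction with a mean of at least 100 and the gene with the highest mean; other members are given by their fold changes, and SLC3A2, SLC25A39, SLCO2A1 and SLC29A4 were given in full after their values were seen, as were the ratios. Of the 63 genes, 1 enters the counts but is not reported here by itself. Members, classes and lists were chosen with earlier results of these data known. GC content came from the mouse gene of the same symbol (longest coding transcript, GENCODE M21), found for 3676 genes (87.6%). The GC trend was removed by loess with a span of 0.3. Also tried were equal totals, a lower-quartile filter, a pseudocount of 0.1, a replicate block, each library left out and either p alone. The ratio of SLC7A5 to SLC3A2 was tested with SciPy 1.17.1 and figures drawn with Matplotlib 3.10.9, under Python 3.11.15 with pandas 2.3.3 and NumPy 2.4.6.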

Additional observations from a re-analysis of the deposited data

How the results depend on the processing

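Limma passed all 63 genes, so calls follow the authors' adjusted p, which was not refitted. An alternative could therefore end a call only through limma. The listed genes were also selected by a p from the same 6 libraries, so the counts could hardly change when 1 was left out. No call of the 41 ended with a pseudocount of 0.1 or when any 1 of the 6 libraries was left out; over the fits without 1 library the counts stayed at 14 higher and 27 lower, with 1 and 5 amino acid, 3 and 3 metal, 3 and 6 SLC25 and 1 and 2 organic ion carriers higher and lower. Samples of the same number in the 2 groups correlated by 0.0878, 0.104 and 0.193 in their deviations from the group means, and each correlated best with its own number, but the labels do not say that the numbers pair samples; with the replicate block the counts were again 14 and 27. With the lower quartile left out 49 of the 63 genes were fitted, and of the organic ion carriers 1 fell. Limma alone passed 21 higher and 42 lower, with 2 and 5 organic ion carriers and SLC35A4 (-0.12). Equal totals shifted the median of all listed genes by 0.08 and ended 3 calls, SLC39A7 and SLC25A5 among them. With the GC trend removed the counts were 2 higher and 2 lower, with 0 and 0 amino acid, 1 and 0 metal, 1 and 1 SLC25 and 0 and 0 organic ion carriers. Among the 38 named genes 9 then changed sign: SLC7A5 (0.0227), SLC38A10 (0.00199), SLC39A7 (0.0935), SLC39A3 (0.0147), SLC27A4 (0.0273), SLC16A1 (-0.0775), SLC16A3 (0.0319), SLC35A4, not called before (0.0693), and SLC2A8 (0.0788). A count test on whole reads was not run, because the Control libraries held too few low values to rebuild reads under the rule used.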
